A study of Sus scrofa with 120 samples.

Results

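The comparison described here asks what the TRPV4 antagonist GSK205 did to the transcriptome of mechanically loaded pig chondrocytes, 9 h after loading began. It rests on 8 of the 120 RNA-seq libraries of the series, chosen by their titles: 4 libraries of constructs loaded with GSK205 and 4 of constructs loaded without it. All came from primary chondrocytes of femoral cartilage (genotype label WT/NT) cast in 2% agarose. Loading was cyclic unconfined compression of 10% at 1 Hz for 3 h, so the 9 h harvest came after loading had ended, and the labels do not say whether GSK205 was still present then. The GSK205 dose is 10 uM in the series description, while the sample labels give the unit as mM. Beside these groups, values are given for free-swelling constructs in the DMSO vehicle and for free-swelling constructs with GSK205, and for the same 4 conditions harvested at 3 h, each with 4 libraries. Whether constructs loaded without GSK205 also received DMSO is not stated. Constructs treated with IL-1 or with the TRPV4 agonist GSK101 at the same harvests also entered the fits, but their gene levels are not given. No animal is named for any library, so p-values measure the spread between these libraries, which may be technical. Agarose constructs hold isolated chondrocytes without the tissue around them, which limits them as a model of cartilage.

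TRPV4 is a calcium-permeable cation channel of the plasma membrane that opens on osmotic and mechanical stimulation and is abundant in chondrocytes. In cartilage it is known as a sensor of moderate, physiologic loading, and its calcium signal is linked to matrix synthesis and to growth factor genes of the TGF-beta family. GSK205 is a small molecule that blocks the channel. Fast responses to calcium pass through immediate early transcription factors such as FOS and EGR1, and slower ones through secreted factors and matrix genes.

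Total counts were 28426748 to 60431543 in the loading libraries and 30861957 to 40167217 in the loading with GSK205 libraries, and 16540 genes were tested. Chondrocyte markers were abundant: 9 markers together made up 76800 to 86400 CPM (counts scaled to each library's total) in loading and 77100 to 82300 CPM in loading with GSK205. Of 7 other cell types, fibroblast genes were the most abundant, at 451 to 540 CPM in loading and 441 to 481 CPM with GSK205, led by COL3A1. The 11 leukocyte genes summed to 39.5 to 46.7 CPM in loading and 34.1 to 39.4 CPM with GSK205, so these sums just did not overlap. CD14 led them, at a mean of 33.3 and 27 CPM, and LYZ was at 0 in all 8 libraries. The 9 endothelial genes summed to at most 15.5 and 12.3 CPM. Of 40 marker genes tested, 0 were called (quasi-likelihood F-test of edgeR, Benjamini-Hochberg), beside 4.10% of all genes. The nearest was the leukocyte gene CD14 (-0.30 ± 0.09, adjusted p = 0.053). Small RNAs took 6.47 to 9.44% of counts in loading and 5.21 to 6.99% with GSK205. In these whole constructs, fewer cells of a type and less RNA per cell cannot be told apart.

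GSK205 changed 678 of 16540 genes in loaded constructs at 9 h (4.10%), 349 higher (2.11%) and 329 lower (1.99%), in edgeR's quasi-likelihood fit with an adjusted p below 0.05. Most changes were small: the median size among called genes was 0.251 on the log2 scale, and 22 called genes passed a 2-fold change, 5 higher and 17 lower. The 4 and 4 libraries did not overlap for 607 of the 678 called genes, against 11.8% of all genes tested. The differences were called on these same 8 libraries, so this share describes the calls and is no separate support for them. Metallothionein, BMP and lipid synthesis genes were among those that rose. Among those that fell were immediate early genes, TGFB1 with its target CCN2, secreted cartilage proteins and ribosomal protein genes. In the text, ± gives a standard error after a log2 fold change and an SD over 4 libraries after a level. The split depended on scaling, with 290 higher and 437 lower under upper-quartile scaling. The count was 295 without loading with GSK205 replicate 1, 347 without its replicate 3 and 320 without loading replicate 1. Single genes were refitted with each of the 8 libraries left out in turn, and where this ended a call, the number of such fits and their highest adjusted p follow the gene's values.

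The target itself came first. TRPV4 (ENSSSCG00000009929, chromosome 14, 41125819 to 41169582, Sscrofa11.1) stood at 592, 630, 595 and 581 CPM in the loading libraries. With GSK205 it stood at 689, 645, 675 and 606 CPM. The groups overlapped, and the difference of 0.12 ± 0.06 did not pass the test (adjusted p = 0.24). GSK205 acts on the channel protein, so this level is no check of the block. PIEZO1, the other main mechanically opened calcium channel of chondrocytes, was at 82.1 to 99.5 CPM in loading and 94.9 to 106 CPM with GSK205 (0.16 ± 0.08, adjusted p = 0.32). Of 16 TRP and PIEZO channel genes tested, 0 were called, beside 4.10% of all genes. Among 18 genes of calcium stores and pumps 1 rose and 1 fell (2.11% and 1.99% of all genes). These were ATP2B4, a plasma membrane pump that exports calcium (0.25 ± 0.05, adjusted p = 0.0036), and S100A1, a calcium-binding protein (-0.22 ± 0.06, adjusted p = 0.023). S100A1 lost its call in 4 of the 8 refits (adjusted p up to 0.10).

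The gene with the smallest p was CLEC3A, which encodes a cartilage-specific C-type lectin (ENSSSCG00000034604, chromosome 6, 9907145 to 9915384), named here after its values were seen. It was at 741, 739, 760 and 801 CPM in loading. With GSK205 it was at 544, 577, 557 and 527 CPM, so that every library with GSK205 lay below every library without it. The log2 fold change was -0.46 ± 0.04 (adjusted p = 1.4e-07). Free-swelling DMSO constructs had 479 to 511 CPM and GSK205 constructs 352 to 387 CPM, so that the loaded level was the higher one with and without the antagonist. GSK205 without loading lowered it by 0.42 ± 0.04, and the interaction, which tests whether the GSK205 effect differed with loading, was -0.05 ± 0.06 (adjusted p = 0.76). CYTL1, a cytokine-like protein secreted by chondrocytes (ENSSSCG00000008725, chromosome 8, 5455576 to 5460861), went the same way. Its loading values were 41.5, 42.0, 51.4 and 45.9 CPM, and 24.8, 28.8, 25.2 and 31.4 CPM with GSK205 (-0.71 ± 0.08, adjusted p = 1.6e-06). The plot of levels by library shows both genes in all 4 conditions.

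**Figure D1:**
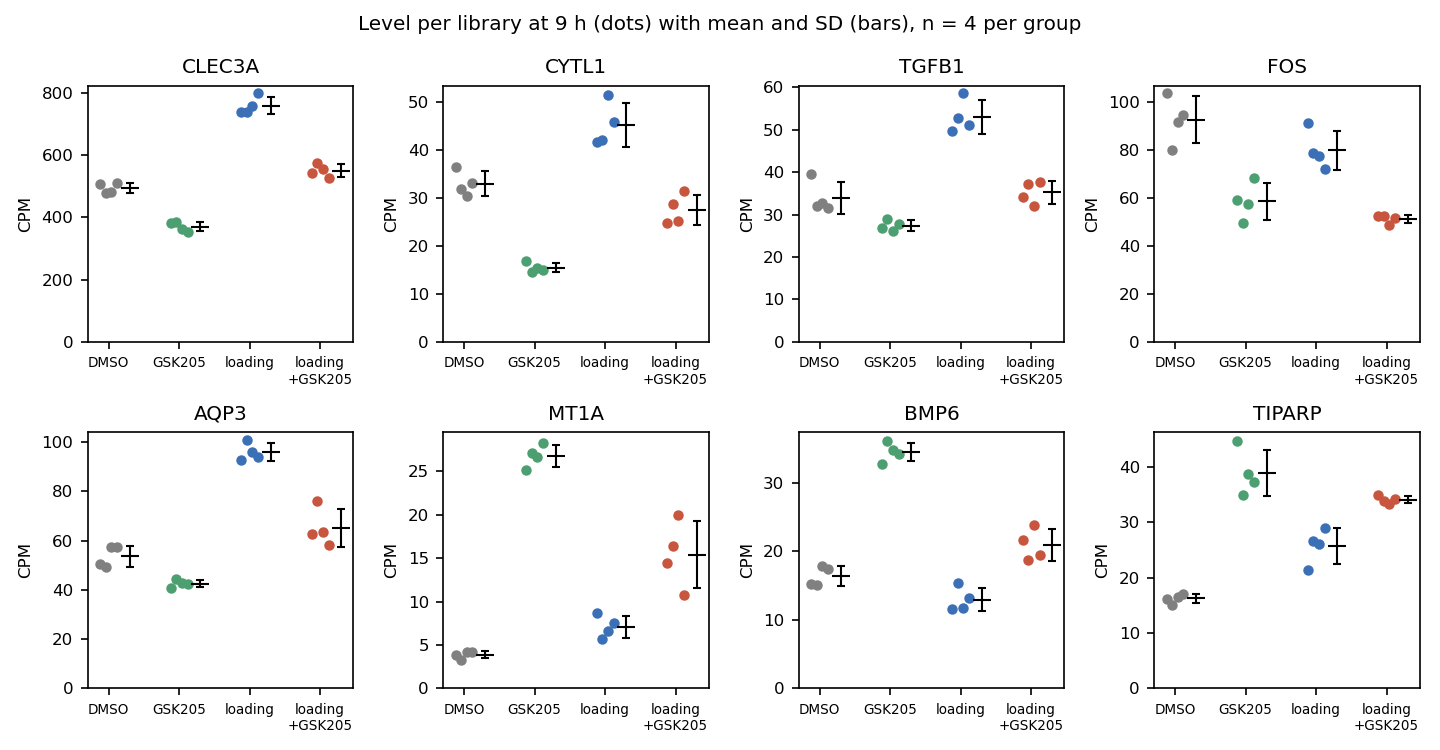
Level of 8 genes in each 9 h library (vertical axis CPM, from 0; horizontal axis the 4 conditions; dots are libraries, bars the mean and SD of 4). CLEC3A, CYTL1, TGFB1, FOS and AQP3 were lower, and MT1A, BMP6 and TIPARP higher, in each loading with GSK205 library than in each loading library.

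Of 30 cartilage matrix genes, 2 fell and 0 rose (1.99% and 2.11% of all genes). The 2 were CYTL1 and the cartilage matrix protein MATN1, which went from 3508 ± 78.3 to 2986 ± 126 CPM (-0.23 ± 0.05, adjusted p = 0.0067). The main cartilage components were not called. COL2A1, the chain of type II collagen, was at 41900 to 49030 CPM in loading and 41300 to 44540 CPM with GSK205 (-0.08 ± 0.05, adjusted p = 0.49). ACAN, the core protein of aggrecan, differed by 0.05 ± 0.05 (adjusted p = 0.67), and SOX9, the master transcription factor of chondrocytes, by 0.09 ± 0.05 (adjusted p = 0.40). Among 18 chondrocyte transcription factors 1 rose (2.11% of all genes), the SOX9 relative SOX8 (0.24 ± 0.06, adjusted p = 0.021). Of 30 genes of proteoglycan and hyaluronan synthesis 2 rose, beside the same share of all genes. They were XYLT1, which starts glycosaminoglycan chains (0.23 ± 0.06, adjusted p = 0.014), and CHST3, a chondroitin sulfotransferase (0.29 ± 0.07, adjusted p = 0.012). Of 30 genes of other collagens and fibrosis 0 were called, beside 4.10% of all genes. Among the 8 refits SOX8 lost its call in 4 (adjusted p up to 0.12), and XYLT1 and CHST3 lost theirs in 2 (up to 0.086 and 0.066).

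Part of the immediate early genes fell. These are transcription factors and phosphatases that cells switch on within minutes of a stimulus, without new protein. Of 27 tested, 8 fell and 1 rose (1.99% and 2.11% of all genes), with a list median of -0.018 beside -0.005 over all genes, so the fall did not extend to the list as a whole. FOS, one partner of the AP-1 dimer (ENSSSCG00000002383, chromosome 7, 98449508 to 98451971), had 91.2, 78.9, 77.5 and 72.2 CPM in loading. With GSK205 it had 52.5, 52.4, 48.8 and 51.5 CPM, a non-overlapping difference of -0.64 ± 0.07 (adjusted p = 1.8e-06). EGR1, a zinc-finger factor, was at 17.6 to 21.3 CPM in loading and 13.0 to 15.8 CPM with GSK205 (-0.43 ± 0.09, adjusted p = 0.0045). Its relative EGR2 was scarce, at 0.754 to 1.55 and 0.411 to 0.872 CPM, and fell by 1.08 ± 0.25 (adjusted p = 0.0097) with overlapping groups. FOSB (-0.62 ± 0.11), DUSP5 (-0.54 ± 0.10), ZFP36 (-0.33 ± 0.08), JUNB (-0.30 ± 0.07) and DUSP1 (-0.24 ± 0.04) also fell, while the FOS relative FOSL2 rose by 0.24 ± 0.05. NR4A1, an orphan nuclear receptor of the same class, had a difference of 0.50 ± 0.15 in the other direction that was not called (adjusted p = 0.051). EGR2 lost its call without loading with GSK205 replicate 1 (adjusted p = 0.055) and JUNB without loading replicate 1 (adjusted p = 0.052). ZFP36 lost its call in 3 of the 8 refits (up to 0.088) and FOSL2 in 2 (up to 0.063).

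In free-swelling constructs GSK205 called 10 of the 27 immediate early genes higher and 6 lower (12.1% and 9.15% of all genes). Those it lowered included FOS (-0.66 ± 0.07), EGR1 (-0.86 ± 0.09) and FOSB (-1.56 ± 0.11). The interaction was called lower for 9 of the 27 and higher for 2 (2.41% and 2.22% of all genes), EGR1 and FOSB being the 2 higher. For EGR1 the interaction was called at 0.43 ± 0.13 (adjusted p = 0.045), the fall being smaller under loading. That call was lost in 9 of 16 fits that each left out 1 library (adjusted p up to 0.11) and in a fit of only these 16 libraries (0.074). The interaction was 0.01 ± 0.10 for FOS (adjusted p = 0.97). For FOSB it was called, at 0.94 ± 0.15 (adjusted p = 0.00024): in DMSO this gene stood at 10.9 to 12.3 CPM, in loading at 4.63 to 6.92 CPM, in GSK205 at 2.85 to 4.52 CPM and with both at 3.34 to 4.35 CPM. The level without either treatment was thus the highest, and adding GSK205 lowered it less after loading.

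TGF-beta signalling was represented by a ligand and several genes it is known to induce. Of 25 genes of the TGF-beta and activin list 5 fell and 2 rose (1.99% and 2.11% of all genes). TGFB1, the ligand (ENSSSCG00000003017, chromosome 6, 49332169 to 49348642), was at 49.6, 52.7, 58.7 and 51.1 CPM in loading and at 34.0, 37.2, 32.0 and 37.7 CPM with GSK205. The difference was -0.59 ± 0.07 (adjusted p = 1.5e-06), and the levels with GSK205 lay near those of DMSO constructs (31.6 to 39.6 CPM). CCN2, a matricellular protein also counted among YAP-TAZ targets, fell from 80.4 ± 4.87 to 55.7 ± 4.13 CPM (-0.53 ± 0.06, adjusted p = 2.9e-06). TGFBI, a secreted TGF-beta-induced protein, fell by 0.36 ± 0.07 and the repressor TGIF1 by 0.18 ± 0.04. Another ligand, TGFB3, rose by 0.23 ± 0.05 and the signal carrier SMAD2 by 0.18 ± 0.05. The activin subunit INHBA (-0.39 ± 0.14, adjusted p = 0.12) and the feedback inhibitor PMEPA1 (0.20 ± 0.09, adjusted p = 0.24) were not called, and INHBA was at 5.27 to 8.47 CPM in loading and 4.17 to 6.22 CPM with GSK205. The list is not of one direction, and its median was -0.008. SMAD2 lost its call in 7 of the 8 refits (adjusted p up to 0.13) and under upper-quartile scaling, and TGIF1 in 3 (up to 0.072).

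Loading alone, which shares the loading libraries with this comparison, raised TGFB1 at 9 h by 0.64 ± 0.07 and TGFBI by 0.73 ± 0.07. GSK205 alone, in other libraries, lowered CCN2 by 0.58 ± 0.06 and TGFB1 by 0.31 ± 0.07. The interaction was not called for CCN2 (adjusted p = 0.82) or TGFB1 (adjusted p = 0.091).

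Part of the BMP genes rose. BMPs are ligands of the same superfamily with their own receptors and SMADs. Of 25 BMP and ID genes 5 rose and 0 fell (2.11% and 1.99% of all genes), with a list median of -0.018, so the rise again concerned a part of the list. BMP6 (ENSSSCG00000001027, chromosome 7, 5058817 to 5208868) was at 11.6, 15.3, 11.8 and 13.2 CPM in loading and 21.6, 18.8, 23.8 and 19.5 CPM with GSK205 (0.68 ± 0.10, adjusted p = 5.3e-05). GDF5, a BMP-family ligand of joint formation, rose by 0.30 ± 0.07 (adjusted p = 0.0070), with 1 library at 94.1 CPM, within the loading range of 81.4 to 96.3 CPM, and the others at 115 to 117 CPM. The receptor BMPR2 rose from 55.9 ± 1.33 to 69.9 ± 2.30 CPM (0.32 ± 0.05), the carrier SMAD1 by 0.26 ± 0.06 and the target ID2 by 0.23 ± 0.07, whose call was lost in 6 of the 8 refits (adjusted p up to 0.20) and under upper-quartile scaling. GSK205 alone raised BMP6 by 1.07 ± 0.10, to 32.8 to 36.1 CPM, and the interaction was not called (-0.39 ± 0.14, adjusted p = 0.10). The WNT (30 genes), hedgehog and hypertrophy (19), fibroblast growth factor (10), interferon (24) and p53 (19) lists held 0 called genes each. Of all genes 4.10% were called, and at that share lists of 10 to 30 genes hold few calls, so 0 does not set them apart.

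Matrix proteases and their inhibitors had 4 falls and 1 rise among 28 (1.99% and 2.11% of all genes). TIMP1, the inhibitor of metalloproteinases, went from 72.5 to 88.3 CPM in loading to 57.4 to 62.4 CPM with GSK205 (-0.43 ± 0.06, adjusted p = 9.7e-05). MMP13, the collagenase that cleaves type II collagen, fell by 0.33 ± 0.09 (adjusted p = 0.022) with overlapping groups, from 14.2 ± 1.60 to 11.3 ± 1.31 CPM. ADAMTS6 fell by 0.19 ± 0.05 and the disintegrin gene ADAM12 rose by 0.44 ± 0.12. The call of MMP13 was lost in 3 of the 8 refits (up to 0.14, without loading replicate 1), that of ADAM12 in 5 (up to 0.11) and that of ADAMTS6 in 7 (up to 0.12).

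Among genes of the actin cytoskeleton driven by SRF, 5 of 23 fell and 1 rose (1.99% and 2.11% of all genes). ACTG1 fell from 1461 ± 43.2 to 1190 ± 17.7 CPM (-0.30 ± 0.05) and ACTB from 1444 ± 66.9 to 1204 ± 11.3 CPM (-0.26 ± 0.07), although reads of these near-identical actins can be shared. TAGLN, an actin-binding protein, fell by 0.35 ± 0.08, PDLIM7 by 0.23 ± 0.06 and TPM1 by 0.22 ± 0.04, while TPM4 rose by 0.18 ± 0.05. CCN1, a matricellular YAP-TAZ target like CCN2, fell by 0.22 ± 0.06 (adjusted p = 0.030), and CAV1, the caveola protein, by 0.27 ± 0.05. THBS1, a matricellular activator of latent TGF-beta that was chosen after its values were seen, fell from 474 ± 17.2 to 368 ± 15.9 CPM (-0.37 ± 0.05, adjusted p = 1.3e-05). Several of these calls were fragile in the 8 refits: ACTB and TPM4 lost theirs in 7 (adjusted p up to 0.11 and 0.17), CCN1 in 6 (up to 0.13) and PDLIM7 in 4 (up to 0.16). TAGLN lost its call without loading with GSK205 replicate 1 (0.061).

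Of 33 genes of sterol and fatty acid synthesis 7 rose and 0 fell (2.11% and 1.99% of all genes), with a list median of 0.102 beside -0.005 over all genes. ACSS2, which makes acetyl-CoA from acetate, was at 17.7, 19.7, 17.2 and 20.2 CPM in loading and 26.8, 25.2, 25.7 and 29.4 CPM with GSK205 (0.52 ± 0.10, adjusted p = 0.0017). ACACA, the carboxylase that commits acetyl-CoA to fatty acids, rose by 0.33 ± 0.05 and the desaturase SCD by 0.24 ± 0.05. INSIG1, the sterol sensor of the endoplasmic reticulum, went from 418 to 439 CPM to 500 to 525 CPM (0.26 ± 0.04). STARD4 (0.27 ± 0.07), HMGCS1 (0.22 ± 0.06) and SC5D (0.19 ± 0.05), of cholesterol transport and synthesis, completed the 7. HMGCS1 lost its call in 7 of the 8 refits (adjusted p up to 0.14), and STARD4 and SC5D in 5 (up to 0.12 and 0.11). GSK205 alone at 9 h called 6 of the 33 higher and 6 lower (12.1% and 9.15% of all genes), with a list median of -0.024. The interaction was called higher for 4 of the 33 and lower for 0 (2.22% and 2.41% of all genes). At 3 h GSK205 added to loading had 12 of the 33 lower and 0 higher, where 8.16% of all genes were lower. The plot of both lists across comparisons shows this change of sign between harvests.

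**Figure D2:**
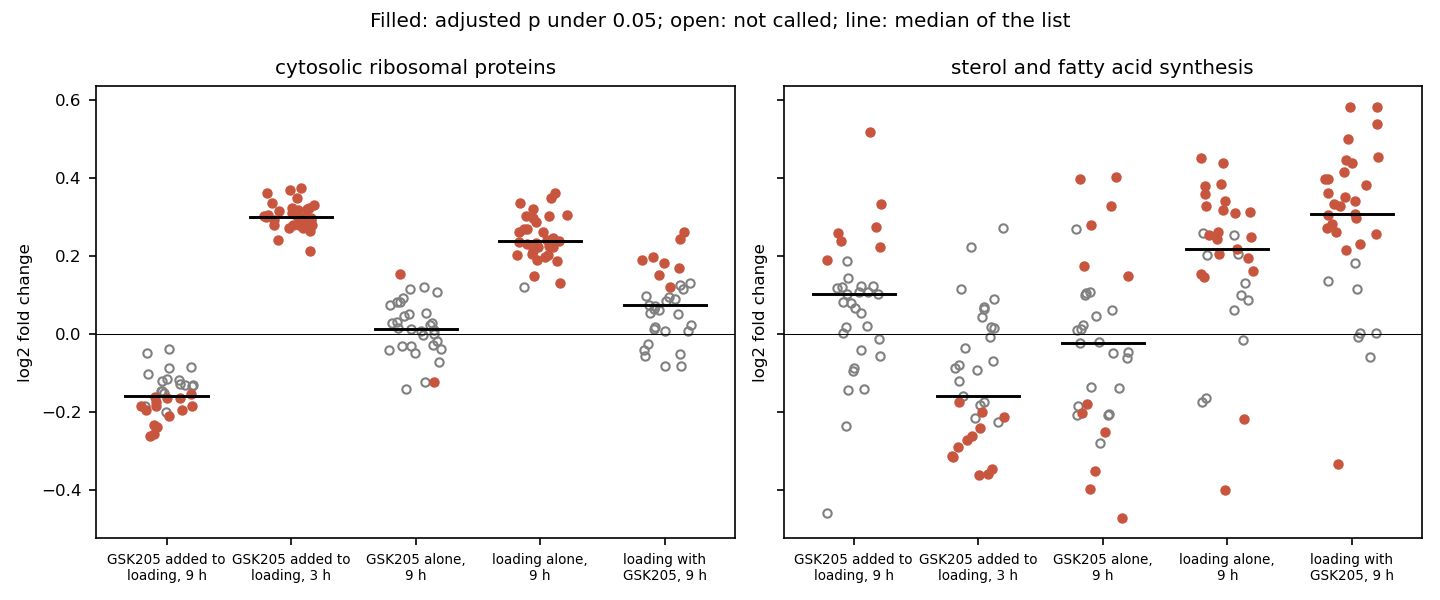
Log2 fold change (vertical axis) of each tested gene of the ribosomal protein list (left) and the sterol and fatty acid synthesis list (right) in 5 comparisons (horizontal axis), filled where called and with the list median as a line. Medians at 9 h and 3 h with GSK205 added to loading were -0.159 and 0.299 for ribosomal proteins and 0.102 and -0.159 for sterol and fatty acid genes.

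Cytosolic ribosomal protein genes fell in part and by little. Of 32 listed, 15 fell and 0 rose (1.99% and 2.11% of all genes), with a median of -0.159. Over all 70 genes with such a symbol 31 fell and 68 had a value below 0. RPLP1, of the ribosomal stalk, was at 2239, 2117, 2090 and 2002 CPM in loading and at 1786, 1766, 1736 and 1761 CPM with GSK205 (-0.26 ± 0.05, adjusted p = 0.0019). RPS15, of the small subunit, fell by 0.26 ± 0.06, and RPL27 and RPLP2 fell by 0.24 ± 0.05 and 0.23 ± 0.06. RPS15 lost its call without loading replicate 1 (adjusted p = 0.055) and RPLP2 in 2 of the 8 refits (up to 0.082). Together the 70 genes took 48410 to 52170 CPM in loading, 44060 to 45930 CPM with GSK205, 41090 to 43670 CPM in DMSO and 41020 to 45540 CPM with GSK205 alone. The loading libraries were thus the highest of the 4 conditions. GSK205 alone called 1 listed gene higher and 1 lower (12.1% and 9.15% of all genes), and the same comparison at 3 h called all 32 higher (7.11% of all genes were higher there). The interaction was called lower for 6 of the 32 (2.41% of all genes), so for most single genes of the list a dependence on loading was not shown. Over the 70 genes it was called lower for 13 and higher for 0, with a median of -0.182 and 68 values below 0. GSK205 alone had a median of 0.0123 over the 70, with 25 below 0. With GSK205 added to loading, the direction in the list held under every scaling, with 24 lower under upper-quartile scaling and 24 by DESeq2. Only 4 of 30 were lower there with a correction for gene length. Their number was 3 without loading replicate 1, 4 without loading with GSK205 replicate 3, and 6 and 9 without replicates 1 and 4 of that group. Reads of ribosomal protein genes can be shared with their pseudogenes.

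Gene length moved with the result. Genomic length was taken for the 91.8% of protein-coding genes with a RefSeq position. Called genes that rose had a median length of 71.1 kb and those that fell 8.84 kb, against 29.0 kb for all. All measured genes were split by length into 4 classes of equal size. Of 322 that rose, 156 were in the longest class (over 72.9 kb), and of 279 that fell, 166 were in the shortest (up to 11.6 kb). Each library's shift between these classes, short minus long, was 0.104 to 0.181 in loading and 0.0428 to 0.0919 in loading with GSK205 on the log2 scale. These 2 groups did not overlap. DMSO libraries had -0.0515 to -0.00861. Libraries with GSK205 alone had -0.0573 to 0.11, so that replicate 4 of that group lay above the lowest loading library. The part of gene length in the result was not tested beyond a fit with a length correction, chosen after seeing the data, in which 555 genes were called (342 higher, 213 lower). It kept 431 of the 601 calls it could test. CLEC3A, TGFB1, FOS, CCN2, BMP6 and ACSS2 kept theirs, while CCN1, MCM7, S100A1, IL11RA, COX5B, ABCC1, SLC16A3, CRYAB, BHLHE40, DDIT4, SMAD2, TGIF1, ZFP36, RPLP2 and RPL27 were among those that did not. MT1A has no position and could not be tested there.

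**Figure D3:**
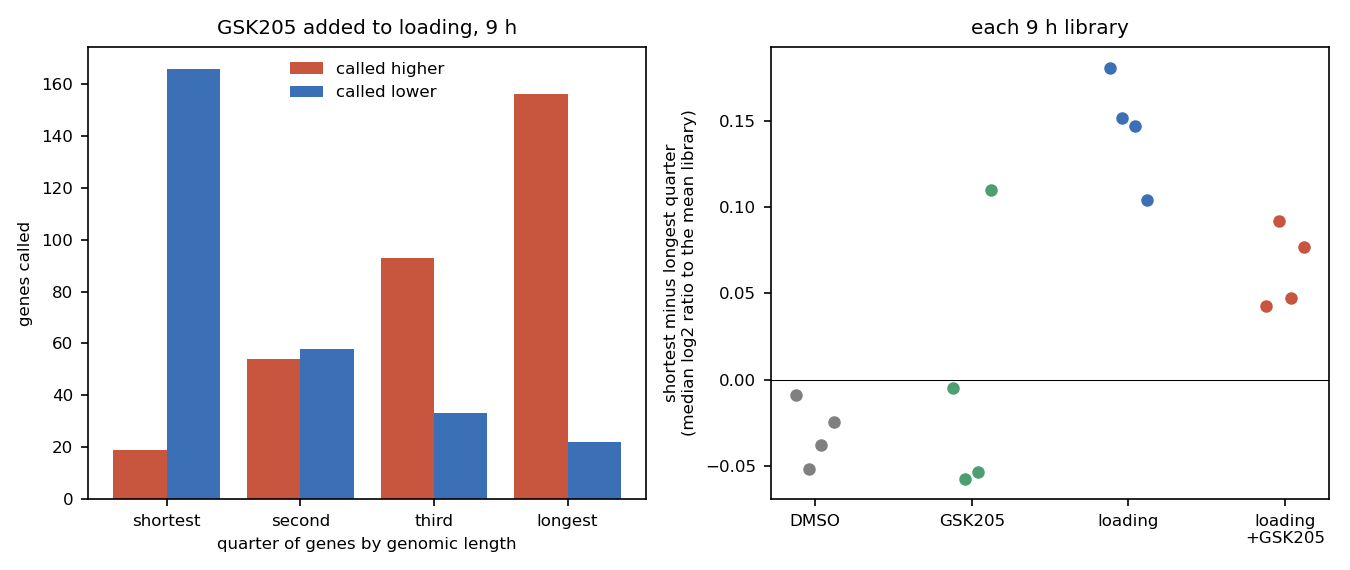
Left, genes called higher and lower with GSK205 added to loading at 9 h (vertical axis, from 0) in 4 classes of genomic length (horizontal axis). Right, the shortest minus the longest class in each 9 h library (vertical axis, log2, dots are libraries), where the 4 loading libraries lie above the 4 of loading with GSK205.

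Respiratory chain genes had 2 falls among 26 (1.99% of all genes fell), NDUFB1 of complex I (-0.42 ± 0.11) and COX5B of complex IV (-0.22 ± 0.06). In the hypoxia and glycolysis list 4 of 32 fell, beside the same 1.99%. They were the glucose transporter SLC2A3 (-0.28 ± 0.06), the hexokinases HK2 (-0.28 ± 0.06) and HK1 (-0.15 ± 0.04) and the lactate exporter SLC16A3 (-0.26 ± 0.08). Cell cycle and replication genes had 4 falls among 32 (1.99% of all genes) and a list median of -0.209. All 4 encode subunits of the MCM helicase that unwinds DNA for replication. MCM2 was at 13.0 to 17.1 CPM in loading and 9.02 to 11.7 CPM with GSK205 (-0.52 ± 0.11, adjusted p = 0.0048). MCM4 (-0.38 ± 0.09), MCM3 (-0.31 ± 0.07) and MCM7 (-0.21 ± 0.06) followed. GSK205 alone lowered the same 4 genes, by 0.96 ± 0.12 for MCM2, 0.55 ± 0.10 for MCM4, 0.63 ± 0.08 for MCM3 and 0.20 ± 0.06 for MCM7. With 1 library left out at a time, HK1 lost its call in 6 of the 8 refits (adjusted p up to 0.12), SLC16A3, MCM7 and COX5B in 5 (up to 0.22, 0.14 and 0.13) and NDUFB1 in 4 (up to 0.12). MCM4 lost its call without loading with GSK205 replicate 1 (0.065).

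Of the named genes at 5 CPM or more, the largest rise was that of a metallothionein, one of the small proteins that bind zinc and other metals and are induced by them. MT1A (ENSSSCG00000023684) was at 8.67, 5.68, 6.56 and 7.49 CPM in loading. With GSK205 it was at 14.5, 16.4, 20.0 and 10.7 CPM, above every loading library (1.11 ± 0.13, adjusted p = 1.7e-06). MT1D (ENSSSCG00000024911, chromosome 6, 18650985 to 18652317) was almost absent in loading, at 0.0623 to 0.194 CPM, and was at 1.24 to 2.76 CPM with GSK205 (3.96 ± 0.41, adjusted p = 6.4e-07). Reads of these near-identical genes can be shared, so they are not independent. In free-swelling constructs GSK205 raised MT1A from 3.27 to 4.19 CPM to 25.2 to 28.2 CPM, a larger rise than under loading (interaction -1.69 ± 0.19, adjusted p = 2.6e-06).

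Targets of the aryl hydrocarbon receptor, a sensor of small aromatic molecules, showed 1 rise among 12 (2.11% of all genes). TIPARP, its feedback repressor (ENSSSCG00000027646, chromosome 13, 96496386 to 96524879), went from 21.3 to 29.0 CPM in loading to 33.3 to 34.9 CPM with GSK205 (0.41 ± 0.08, adjusted p = 0.0021). The monooxygenase genes CYP1A1 (-0.11 ± 0.10, adjusted p = 0.65) and CYP1B1 (0.09 ± 0.06, adjusted p = 0.54) were not called. Here the interaction was the larger result. CYP1B1 stood at 399 to 419 CPM in DMSO, 764 to 929 CPM with GSK205, 907 to 1071 CPM with loading and 1004 to 1106 CPM with both, and the interaction was -0.94 ± 0.09 (adjusted p = 1.8e-07). Either treatment alone raised it (1.03 ± 0.06 for GSK205 and 1.28 ± 0.06 for loading), and both together did not go to the sum of the 2 rises. TIPARP had an interaction of -0.86 ± 0.11 (adjusted p = 2.0e-05). Of the 12 targets, 5 were called lower in the interaction and 1 higher (2.41% and 2.22% of all genes). Lower calls were not particular to this list. The NF-kB and inflammatory list had 8 of 29 lower and the ATF4 list 7 of 24, each with 0 higher.

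Cytokine and receptor genes gave scattered calls. TNFRSF11B, which encodes the decoy receptor osteoprotegerin, fell from 248 ± 13.9 to 202 ± 18.7 CPM (-0.30 ± 0.06, adjusted p = 0.0031) and lay above the 104 to 111 CPM of DMSO constructs. IL11RA, the receptor of IL-11, fell by 0.29 ± 0.08. RELB, a subunit of NF-kB, rose by 0.27 ± 0.06 and IRAK3, an inhibitor of Toll-like receptor signalling, by 0.26 ± 0.06. TNFRSF1B, the second TNF receptor, rose by 0.18 ± 0.05. EGFR rose by 0.30 ± 0.06 and its relative ERBB3 fell by 0.22 ± 0.05. RGS16, which shuts off G proteins, fell by 0.39 ± 0.05 and the endothelin receptor EDNRA by 0.40 ± 0.11. The IGF carrier IGFBP5 rose by 0.33 ± 0.06. TNFRSF1B and EDNRA lost their calls in 5 of the 8 refits (adjusted p up to 0.16 and 0.13), IL11RA in 3 (up to 0.13) and RELB in 2 (up to 0.082). TNFRSF1B was also not called under upper-quartile scaling (0.051).

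Stress and protein folding genes moved little. In the unfolded protein response list 3 of 19 rose and 1 fell (2.11% and 1.99% of all genes). The sensor ATF6 (0.27 ± 0.06), SEL1L of the degradation complex (0.20 ± 0.04) and the transcription factor CREB3L2 (0.24 ± 0.06) rose. The chaperone CALR fell by 0.22 ± 0.04. The ATF4 list had 2 falls among 24 (1.99% of all genes fell), NUPR1 from 1807 ± 83.8 to 1450 ± 22.6 CPM (-0.32 ± 0.04) and DDIT4 (-0.24 ± 0.05), whereas 16 of the 24 were higher at 3 h, where 7.11% of all genes were. Of heat shock genes HSPH1 rose by 0.17 ± 0.04 and CRYAB fell by 0.28 ± 0.08. Among NRF2 genes GCLM, a subunit of glutathione synthesis, rose by 0.21 ± 0.05 and the exporter ABCC1 by 0.27 ± 0.08, whose groups overlapped. In the clock list BHLHE40 fell by 0.19 ± 0.05, and PER2 and NR1D1 were not called (adjusted p = 0.76 and 0.83). In the 8 refits ABCC1 lost its call in 6 (adjusted p up to 0.16), HSPH1 and CRYAB in 5 (up to 0.067 and 0.17), GCLM in 4 (up to 0.075), and BHLHE40 and CREB3L2 in 3 (up to 0.11 and 0.081). ABCC1 was not called under upper-quartile scaling either (0.058). The plot of list counts sets these groups side by side: 34 of 41 lists held a called gene, where 4.10% of all genes were called. Many lists of this size hold a called gene at that share, and several of the 34 held only 1 or 2.

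**Figure D4:**
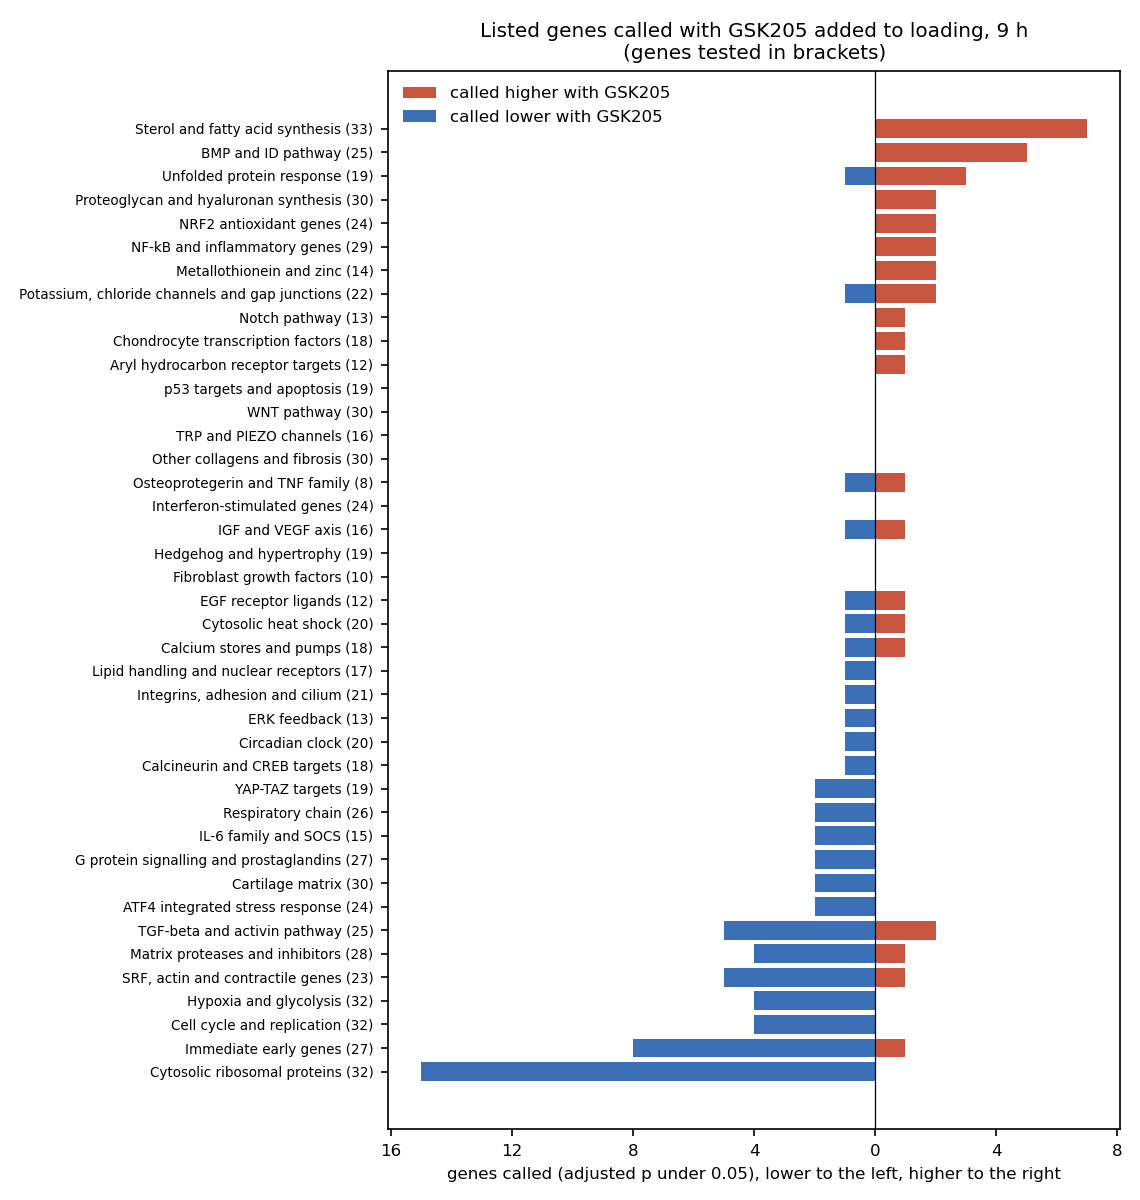
Number of genes called higher (right of 0) and lower (left of 0) with GSK205 added to loading at 9 h (horizontal axis) in 41 gene lists (vertical axis, genes tested in brackets). Sterol and fatty acid synthesis (7 higher) and BMP genes (5 higher) stand at the top, immediate early genes (8 lower) and ribosomal proteins (15 lower) at the bottom.

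Apart from the lists, the genes with the largest changes at 5 CPM or more included PDE7A, a phosphodiesterase that degrades cyclic AMP, which rose from 13.8 ± 1.16 to 22.1 ± 1.18 CPM (0.67 ± 0.07, adjusted p = 8.2e-07). GSK205 alone raised PDE7A by 0.65 ± 0.08, with an interaction of 0.02 ± 0.10 (adjusted p = 0.95). SOGA1 rose by 0.49 ± 0.10, the fatty acyl-CoA reductase FAR2 by 0.49 ± 0.08, ZBTB7C by 0.46 ± 0.09, the receptor kinase RET by 0.44 ± 0.07, FAM110C by 0.43 ± 0.11 and TIGD7 by 0.42 ± 0.12. TIGD7 lost its call in 6 of the 8 refits (adjusted p up to 0.17) and FAM110C in 3 (up to 0.12). For SOGA1 the interaction was called (0.64 ± 0.15, adjusted p = 0.0098), and GSK205 alone gave -0.14 ± 0.11, which was not called.

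On the lower side GFAP, an intermediate filament protein, fell from 10.1 ± 1.82 to 4.96 ± 0.990 CPM (-1.01 ± 0.15). AQP3, a water and glycerol channel, went from 92.9 to 100.9 CPM to 58.4 to 76.2 CPM (-0.56 ± 0.07), and ANGPTL7, a secreted angiopoietin-like protein chosen after its values were seen, from 199 ± 4.75 to 142 ± 10.7 CPM (-0.48 ± 0.06). AQP3 was at 40.6 to 44.3 CPM with GSK205 alone, and loading in the presence of GSK205 raised it by 0.62 ± 0.07, in a comparison where 18.0% of all genes were called (8.82% higher and 9.20% lower). NPTX2 (-0.68 ± 0.12), SAMD11 (-0.62 ± 0.11), the histone gene H2BC11 (-0.58 ± 0.12, of a near-identical family), ATXN7L2 (-0.58 ± 0.11) and ZNF367 (-0.55 ± 0.11) also fell. SDR42E2 had the largest fall of the named genes, but its level varied from library to library. SDR42E2 was at 53.3, 82.4, 109 and 61.8 CPM in loading and 11.3, 3.97, 6.88 and 9.44 CPM with GSK205 (-3.29 ± 0.76, adjusted p = 0.010), while DMSO libraries ranged from 8.45 to 42.7 CPM and GSK205 libraries from 3.96 to 67.5 CPM.

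To see how far the same genes responded to GSK205 without loading, GSK205 alone at 9 h was tested in other libraries and called 3510 genes (21.2%). Of the 678 genes called under loading, 427 were also called there, 63.0% of these and 12.2% of the 3510, and 418 of them had the same sign (246 higher, 172 lower). Irrespective of a call, 572 of the 678 (84.4%) had the same sign. The interaction called 767 genes (4.64%), 368 higher and 399 lower. Its highest named genes were FAT4 (1.02 ± 0.13), COL19A1 (1.02 ± 0.15), FOSB, ATP8A1 (0.90 ± 0.16) and GPX2 (0.88 ± 0.17). FAT4, a giant cadherin, was lowered by GSK205 alone (-0.81 ± 0.10), and under loading differed by 0.21 ± 0.09 (adjusted p = 0.23). The glutathione peroxidase gene GPX2 likewise went from 12.4 to 13.6 CPM in DMSO to 4.78 to 8.88 CPM with GSK205, and stood at 11.6 to 14.1 CPM in loading and 12.6 to 13.6 CPM with both. With upper-quartile scaling the interaction had 433 higher and 304 lower, and the count was 505 without DMSO replicate 2.

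The same comparison at 3 h, in other libraries, called 2529 genes (15.3%) against 678 at 9 h, and 1596 without loading 3 h replicate 1. Of 676 genes called at 9 h and tested at both times, 216 were called at 3 h, 32.0% of these and 8.56% of the 3 h calls tested at 9 h. For 82 the sign was the same (36 higher, 46 lower) and for 134 it was opposite. Genes lowered at both times included TGFB1 (-0.91 ± 0.08 at 3 h), CYTL1 (-0.67 ± 0.09) and AQP3 (-0.46 ± 0.08). MT1A (1.45 ± 0.18) and BMP6 (0.35 ± 0.09) were raised at both. Opposite signs were found for GDF5 (-0.45 ± 0.06 at 3 h), CHST3 (-0.60 ± 0.08), TNFRSF1B (-0.62 ± 0.07) and HSPH1 (-0.35 ± 0.05), which were higher at 9 h. NUPR1 (0.35 ± 0.06), DDIT4 (0.46 ± 0.07), ERBB3 (0.29 ± 0.06) and MATN1 (0.21 ± 0.06) were higher at 3 h and lower at 9 h.

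**Figure D5:**
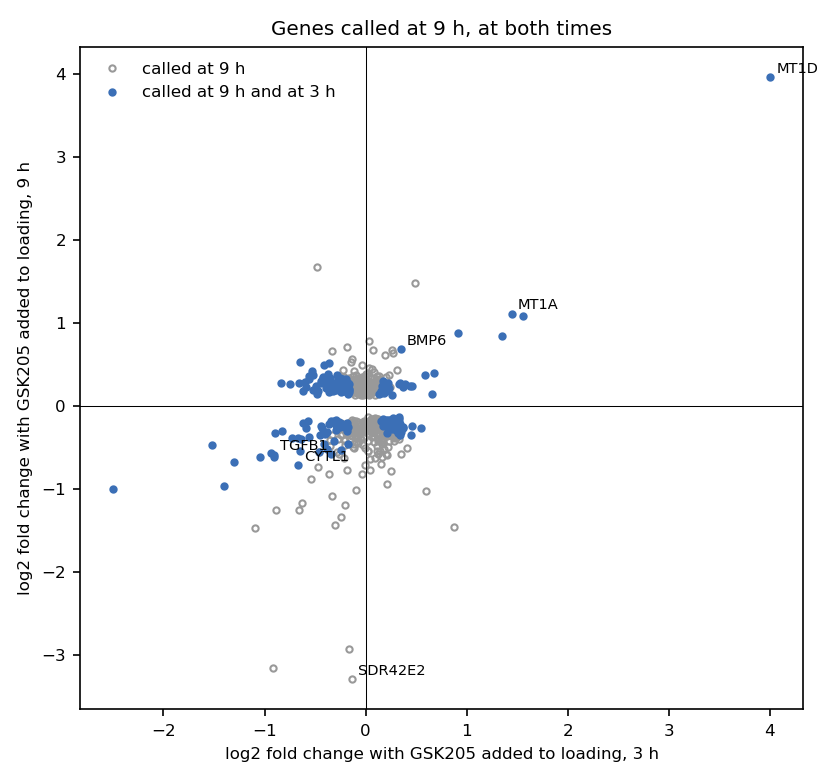
Log2 fold change with GSK205 added to loading at 3 h (horizontal axis) and 9 h (vertical axis) for 675 genes called at 9 h and tested at 3 h, filled where also called at 3 h; 1 gene at 0 in all 4 libraries of a 9 h group was left out. TGFB1 and CYTL1 lie below 0 at both times and MT1A, MT1D and BMP6 above 0 at both.

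The difference between the harvests, tested in a model of both times, was called for 2202 of 17447 genes (12.6%), 1219 higher at 9 h (6.99%) and 983 lower (5.63%). Its highest named genes, IL11 (2.20 ± 0.22), SOCS3 (1.75 ± 0.11), INHBA (1.56 ± 0.21) and GPX2 (1.42 ± 0.21), were lowered at 3 h and not called at 9 h. IL11, a cytokine of the IL-6 family, was at 26.6 ± 7.88 CPM in loading and 5.62 ± 1.35 CPM with GSK205 at 3 h. At 9 h it was at 3.69 to 5.08 and 3.50 to 4.76 CPM (-0.04 ± 0.12, adjusted p = 0.92), beside 3.42 to 4.22 CPM in DMSO constructs. SOCS3, the feedback inhibitor of cytokine receptors, gave 111 ± 14.9 and 29.3 ± 3.07 CPM at 3 h and 21.0 to 23.7 and 18.6 to 21.1 CPM at 9 h (-0.18 ± 0.07, adjusted p = 0.16). At the other end NR4A1 (-1.10 ± 0.24), the kinase SIK1 (-1.27 ± 0.18) and the AP-1 repressor JDP2 (-0.97 ± 0.09) were raised by GSK205 at 3 h and not called at 9 h. FOS differed as well (-0.69 ± 0.10): at 3 h its difference was 0.05 ± 0.07 (adjusted p = 0.70), from a loading range of 109.6 to 133.6 CPM.

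The genes that loading had raised at 3 h were then followed to 9 h, in other libraries. Loading alone had changed 1683 genes there (10.2%) and raised 1302 of them (7.86%). Without loading 3 h replicate 3 it changed 1057 and raised 850, and without DMSO 3 h replicate 4 it changed 1110 and raised 883. Of 1300 such genes tested at 9 h, 102 were higher with GSK205 (7.85%, against 2.11% of all genes) and 34 lower (2.62%, against 1.99%). Among the 49 raised at least 2-fold by loading, 1 was higher and 7 were lower (14.3%). Of the 10 most raised with a level of 5 CPM, 2 were lower with GSK205 at 9 h, JUNB among them, and the other 8 were not called. FGF1, a growth factor, was at 5.17 to 7.74 CPM in loading and 4.06 to 8.19 CPM with GSK205 (-0.11 ± 0.17, adjusted p = 0.81), well above the 1.87 to 2.22 CPM of DMSO constructs. IL11, LIF (-0.27 ± 0.13, adjusted p = 0.29), INHBA, PMEPA1, ATF3 (0.13 ± 0.06, adjusted p = 0.25), HOOK2 (-0.16 ± 0.10, adjusted p = 0.46) and IER3 (-0.02 ± 0.06, adjusted p = 0.93) were the others not called. How many genes loading raised at 3 h depended on scaling: 1302 higher and 381 lower with TMM, and 692 and 621 with upper-quartile scaling.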

How the data were processed

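RNA-seq counts, as whole numbers of reads for each gene, were deposited as a single unscaled table. The tools named in the submitters' processing notes are Trim Galore for trimming, STAR for alignment and HTSeq for counting, with the Sscrofa11.1 build. No version or strand setting was found in the labels, so overlapping genes of opposite orientation could share reads. Per the labels' protocols, ribosomal RNA was removed and random hexamers were used, although the labels call the molecule polyA RNA. Of counts from 1 to 20, 66.62 to 73.58% were even over the 9 h libraries of all conditions in the fit, IL-1 and GSK101 included. The labels do not give the reason.

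From the table, 481 repeated lines with identical counts were removed, leaving 31907 genes. Symbols came from the table or the supplied gene tables, and positions from RefSeq on Sscrofa11.1. The tests used edgeR 4.0.16 under R 4.3.3 (TMM, filterByExpr with a minimum count of 10, glmQLFit, glmQLFTest) in 1 model of the 24 libraries of 6 conditions at 9 h, which share an estimate of the spread (common coefficient of variation 0.0874). These 6 conditions include constructs treated with IL-1 and constructs treated with the TRPV4 agonist GSK101. Their libraries entered the filter, the scaling, the estimate of the spread and the mean behind each library's length shift. The model of 3 h was built likewise, and that of 9 h against 3 h used 48 libraries. P-values were adjusted by Benjamini-Hochberg over all genes of a contrast and called under 0.05. A standard error is the log2 fold change divided by the square root of F. CPM use TMM-scaled totals. No 2 libraries of a group agreed within sampling noise (chi-square per degree of freedom at least 5.79 in the groups compared). The steps were tested on simulated data. Alternatives were DESeq2 1.42.0, upper-quartile scaling, no filter, protein-coding genes only, the replicate number as a block, fewer libraries in the fit, each library left out and, added after seeing the data, an offset for gene length.

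The comparison and the 49 gene lists (41 pathway lists and 8 marker lists) were chosen with earlier results of these data known, so the lists are described and not tested. Of 983 listed genes 33 had no line. Named genes were the 12 highest and 12 lowest called genes with a symbol and at least 5 CPM whose groups did not overlap, up to 4 called genes per list (up to 2 by level where none was called), a fixed set of channel, matrix and loading-response genes, 5 at each end of the interaction and of 9 h against 3 h, and the 10 most raised by loading at 3 h. Called list members beyond these, CLEC3A, THBS1, ANGPTL7 and CD14, and the interactions of EGR1 and SOGA1 were named after their values were seen. Some genes that meet these rules are not reported here, though counts over genes include them.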

Additional observations from a re-analysis of the deposited data

Results flagged for a closer look

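In a group of 4 libraries, a highest or lowest library was singled out by Dixon's critical value. Its gap to the nearest other library had to take more of the group's range than that value allows. Chance singles out about 1 in 20 groups, and 292 gene and group values were screened. In all, 17 were singled out, 1 of them by total count, which is near what chance gives at that rate. In loading libraries the highest value stood apart for BHLHE40 (104.6 CPM against 87.9 to 90.2, share of range 0.862), COL3A1 (325.5 against 261 to 266 CPM, 0.93), IL11RA (32.0 against 27.8 to 28.2 CPM, 0.901), INSIG1 (439 against 418 to 421 CPM, 0.858), JDP2 (41.3 against 37.9 to 38.2 CPM, 0.906) and ZNF45 (219.8 against 18.3 to 33.3 CPM, 0.926). The lowest stood apart for PER2 (3.62 against 5.14 to 5.40 CPM, 0.854). In loading with GSK205 the highest stood apart for INSIG1 (525 against 500 to 504 CPM, 0.839), NUPR1 (1484 against 1436 to 1442 CPM, 0.875) and SLC2A3 (21.4 against 18.9 to 19.0 CPM, 0.928). The lowest stood apart for GCLM (74.2 against 80.6 to 81.5 CPM, 0.873), GDF5 (94.1 against 115 to 117 CPM, 0.897), S100A1 (1023 against 1060 to 1066 CPM, 0.86), SPARC (0.833 of the range), THBS1 (344 against 373 to 379 CPM, 0.835) and XYLT1 (1271 against 1342 to 1351 CPM, 0.887). The deepest loading with GSK205 library had 40167217 counts, at 0.947 of the range.

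By edgeR's test of the interaction, the effect of GSK205 was higher under loading for FAT4 (1.019), COL19A1 (1.016), FOSB (0.9402), ATP8A1 (0.9048), GPX2 (0.8768), SOGA1 (0.6356) and EGR1 (0.4303), whose fragile call the report gives. It was lower under loading for SDR42E2 (-4.203), NFAM1 (-2.922), MT1A (-1.686), CYP1B1 (-0.9407) and TIPARP (-0.8569), all on the log2 scale. These are the ends of the ranking and genes whose interaction the report gives, not every gene called. The interaction of NFAM1 was lost in 9 of 16 fits that each left out 1 library (adjusted p up to 0.069, without DMSO replicate 3) and by DESeq2 (0.056). Between 9 h and 3 h it differed for IL11 (2.202), SOCS3 (1.746), INHBA (1.56) and GPX2 (1.417), with the higher value at 9 h, and for NFAM1 (-3.178), ZNF45 (-1.84), SIK1 (-1.273), NR4A1 (-1.099), JDP2 (-0.9731) and FOS (-0.6872), with the lower value at 9 h. The value of ZNF45 rests on 1 library: without loading 9 h replicate 3 it was -0.41 (adjusted p = 0.55), and its call was also lost without loading with GSK205 replicate 1 of either harvest. NFAM1 and ZNF45 varied widely between libraries of a group, with NFAM1 at 11.0 to 21.5 CPM in loading and 3.04 to 6.66 CPM with GSK205 at 9 h.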

How the results depend on the processing

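No named value changed sign while called, and 79 of 139 calls of named genes and list members held under every alternative run that gave an adjusted p. DESeq2 called 1173 genes for GSK205 added to loading at 9 h (657 shared with the 678) and 1155 for the interaction. Leaving out 1 library at a time gave 295 to 746 genes for GSK205 added to loading at 9 h, 505 to 896 for the interaction, and 1596 to 2524 for 3 h, where the lowest count was without loading replicate 1, and 1057 to 1759 for loading alone at 3 h. The same gave 2833 to 3433 for GSK205 alone, 3024 to 3630 for loading alone, 2198 to 3070 for loading in the presence of GSK205 and 1575 to 2374 for 9 h against 3 h. The offset for gene length left 2579 genes for loading alone, and 552 for the interaction (200 higher, 352 lower). Upper-quartile scaling turned the split of GSK205 alone to 1465 higher and 1952 lower. A fit with only the 8 libraries compared called 985 genes, no filter 791 and protein-coding genes alone 806. Of genes named in the text, no filter ended the calls of MCM7, HK1, CRYAB, ADAM12, ADAMTS6, SMAD2 and TGIF1, the fit of 8 libraries those of ADAM12, EDNRA, SLC16A3 and TNFRSF1B, and upper-quartile scaling those of ABCC1, TNFRSF1B, SMAD2, ID2 and TPM4. Equal replicate numbers did not pair the libraries: their deviations correlated between -0.0431 and 0.107 for loading and loading with GSK205. With the replicate number as a block, 637 genes were called (612 shared), 713 for the interaction, 3352 for GSK205 alone, 3763 for loading alone, 2876 for loading in the presence of GSK205, 2391 at 3 h and 2158 for 9 h against 3 h. ABCC1, TIGD7, ID2, SMAD2 and TPM4 were not called with the block (adjusted p = 0.056 and 0.059 for the first pair). The cause of these shifts was not tested. Counts near 1 CPM, as for EGR2 and MT1D, limit precision, and intervals of counts were not used.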

Other observations

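Single calls in other lists concerned NOTCH2, a Notch receptor (0.18 ± 0.05), and APOD, a lipid-carrying apolipoprotein (-0.21 ± 0.04). The potassium channel KCNK6 rose by 0.27 ± 0.05 and ANO6, a chloride channel and lipid scramblase, by 0.23 ± 0.05. Of the 8 refits that each left out 1 library, NOTCH2 lost its call in 4 (adjusted p up to 0.11) and ANO6 in 1 (0.052). NOTCH2 was also not called with the offset for gene length (0.057). None of 74 mitochondrial ribosomal protein genes was called (0 by edgeR's quasi-likelihood test, median -0.0311), beside 31 of 70 cytosolic ones and 4.10% of all genes. Of 325 small RNA genes 1 was higher and 5 were lower, smaller parts than the 2.11% and 1.99% of all genes, with a median of -0.103. The share of counts in small RNAs was 6.47 to 9.44% in loading and 5.21 to 6.99% with GSK205.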
